A study of Mus musculus with 2 samples.

Results

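The miR-378 family was described in the adrenal gland of young mice, as all annotated miRNA genes whose GENCODE M21 symbol begins with Mir378. That rule was met by 4 of the 2202 miRNA genes in the deposited tables: Mir378a, Mir378b, Mir378c and Mir378d. MicroRNA-seq, which sequences small RNA, was made from adrenal gland tissue of male B6CASTF1/J mice, an F1 hybrid strain, at 14 days of age. Both libraries, biological replicates 1 and 2, belong to the same group, with no treatment and no second condition. Each biosample names 3 males and both share a donor record, and the labels leave unstated whether animals were pooled and whether the replicates come from separate animals. Any p-value below therefore compares these libraries and may measure technical spread. The adrenal gland holds a steroid-making cortex and a catecholamine-making medulla, and in whole tissue fewer cells of a type and less RNA per cell cannot be told apart. The tables hold miRNA genes only, so the mRNAs that mark adrenal cells, and the mRNA of the host gene Ppargc1b, were not measured here.

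A microRNA is cut from a hairpin in a longer transcript, and bases 2 to 8 of the mature strand, the seed, pair with target mRNAs. Mir378a lies inside Ppargc1b, which encodes PGC-1β, a coactivator that works with nuclear receptors such as ERRα to raise genes of mitochondrial biogenesis and fatty acid oxidation. The hairpin yields a strand from each arm. Known targets are the carnitine acetyltransferase Crat, a mitochondrial enzyme of fatty acid metabolism, and Med13, a subunit of the Mediator complex that acts with nuclear receptors. Mice that lack the gene resist obesity on a high-fat diet. The family is known from fat, muscle and liver, tissues rich in mitochondria, and steroid synthesis likewise begins in mitochondria.

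RefSeq sequences on GRCm38.p6 matched 3 of the 4 genes, and they are shown because the family is defined by its mature strand and because the 3 genes differ in that strand and in where it sits. The mature strands follow 5′ to 3′, with the seed in capitals.
miR-378c: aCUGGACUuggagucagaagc
miR-378d: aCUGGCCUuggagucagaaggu
miR-378b: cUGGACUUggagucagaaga
Counting positions from 1 at the 5′ end of miR-378c, miR-378d carried the substitutions A6C and C21G over 21 aligned bases, of which 19 were identical. The change at position 6 falls in the seed. MiR-378b starts 1 base further along, matched 19 of 20 aligned bases and carried C21A. Its annotated seed window is therefore shifted by 1 base, and no 2 of the 3 genes had the same seed. Mir378a was not among the sequences compared. The 14 bases CUUGGAGUCAGAAG were common to all 3 strands. Read along the RNA strand of each hairpin, those letters occurred in 3 of 1005 hairpins of the table (0.299%), which were these 3. The stretch was taken from these 3, so their match was given, and the result is that no other hairpin searched held it.

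Outside the mature strand the hairpins have less in common: the longest stretch shared by any pair of these 3 was 19 bases, between Mir378c and Mir378b, and it lies within the mature strand. The hairpins are printed with the mature strand in capitals, to show on which side of the loop it lies.
Mir378c: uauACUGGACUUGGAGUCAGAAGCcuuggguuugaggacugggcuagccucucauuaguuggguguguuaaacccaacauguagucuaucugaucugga
Mir378d: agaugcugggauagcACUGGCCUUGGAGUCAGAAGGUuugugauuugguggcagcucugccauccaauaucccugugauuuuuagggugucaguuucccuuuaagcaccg
Mir378b: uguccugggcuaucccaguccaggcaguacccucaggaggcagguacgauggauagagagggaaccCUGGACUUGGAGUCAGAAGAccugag
The Mir378c hairpin (chr14:46954830-46954928, minus strand) has 99 bases and carries the mature strand at bases 4 to 24, on the 5′ side. The Mir378d hairpin (chr10:126710282-126710391, minus strand) has 110 bases and carries it at bases 16 to 37, also on the 5′ side. In the Mir378b hairpin (chr11:88352773-88352864, plus strand), of 92 bases, it lies at bases 67 to 86, on the 3′ side. These coordinates were the same in GENCODE M21 on mm10. GC content was 46.5% in the Mir378c hairpin, 49.1% in Mir378d and 57.6% in Mir378b.

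Mir378a (ENSMUSG00000105200.1) held nearly all reads of the family. It had 217252 reads in replicate 1 and 288293 in replicate 2, out of 3024662 and 3464837 reads assigned to miRNA genes on the strand of the gene. Scaled so that each of those totals became 1000000 (CPM), its level was 71827 in replicate 1 and 83205 in replicate 2, or 77516 ± 8046 CPM (SD, n = 2). Its share of counts was 7.18% (95% Clopper-Pearson interval 7.15 to 7.21) in replicate 1 and 8.32% (8.29 to 8.35) in replicate 2, and that of the whole family 7.19% and 8.33%, or 7.76% ± 0.806 (SD, n = 2). The intervals reflect counting alone and treat each read as a separate molecule, which reads copied by PCR are not. They were far narrower than the gap between the libraries. A small RNA read spans a whole mature strand, so CPM was not divided by hairpin length.

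Mir378c (ENSMUSG00000099036.1) came next, with 206 reads in replicate 1 and 288 in replicate 2. Those counts are 68.1 and 83.1 CPM, or 75.6 ± 10.6 CPM (SD, n = 2). Mir378d (ENSMUSG00000098756.1) had 96 and 114 reads, which are 31.7 and 32.9 CPM, or 32.3 ± 0.822 CPM. The lowest member was Mir378b (ENSMUSG00000092985.1), with 8 reads in replicate 1 and 16 in replicate 2. Its level was 2.64 CPM (interval 1.14 to 5.21) and 4.62 CPM (2.64 to 7.50). For scale, 3 reads are worth 0.992 CPM in the former library and 0.866 CPM in the latter. In both libraries the order was Mir378a, Mir378c, Mir378d, Mir378b, and no member's range over the libraries overlapped that of the next. All 4 genes passed a detection limit of 2 CPM in both libraries, as did 364 of the 2202 miRNA genes (16.5%). At a limit of 10 CPM Mir378b fell out and 3 remained.

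**Figure D1:**
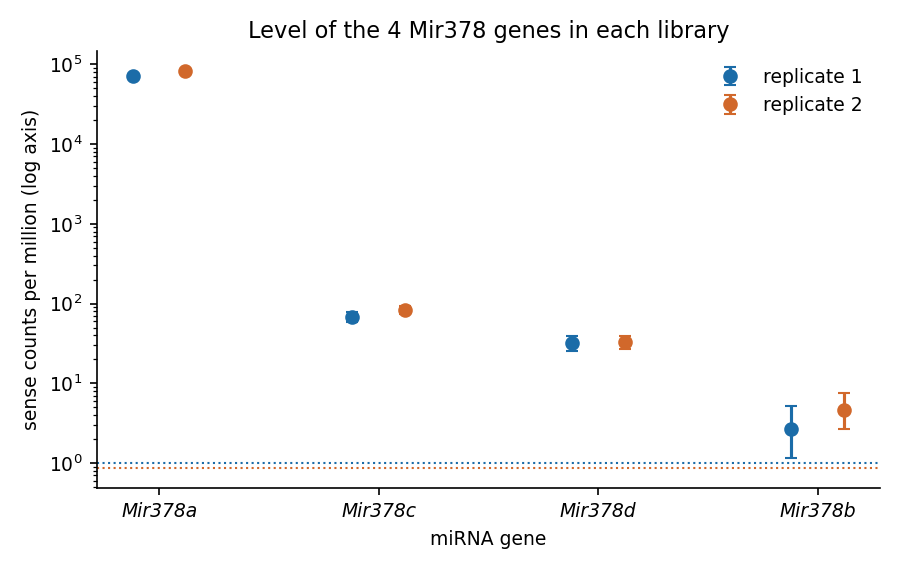
Sense CPM (log axis) of the 4 Mir378 genes, 1 point per library, with 95% Clopper-Pearson intervals as bars and the level of 3 reads as a dotted line for each library. Mir378a sits at 71827 and 83205 CPM, and the other 3 genes lie between 2.64 and 83.1 CPM.

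Mir378a exceeded Mir378c 1055-fold in replicate 1 (exact counting interval 920 to 1215) and 1001-fold in replicate 2 (892 to 1128). Over Mir378d the ratio was 2263 (1853 to 2794) and 2529 (2105 to 3066). Over Mir378b, with its few reads, it was 27157 (13782 to 62903) and 18018 (11095 to 31524). The other 3 genes together made up 0.142% of the family in replicate 1 and 0.145% in replicate 2, with 310 and 418 reads. Mir378c supplied 66.5% of those reads in replicate 1 and 68.9% in replicate 2. Thus the makeup of the family differed little between the libraries: Mir378a was 99.86% of it in replicate 1 (99.84 to 99.87) and 99.86% in replicate 2 (99.84 to 99.87).

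These ratios count only reads placed at a single locus. Reads with several mapping positions, 27.5% of replicate 1 and 29.4% of replicate 2, were assigned to no gene. The hairpins of Mir378a and Mir378c share a stretch of 20 bases, so a read lying inside it has more than 1 match. Mir378d and Mir378b share no stretch of that length with any of the 2202 genes, although Mir378b shares 19 bases with Mir378c. The several-place reads were 9.08 times the reads of Mir378a in replicate 1 and 8.66 times in replicate 2. How many of them came from the miR-378 family was not tested. Whether some reads counted for Mir378c came from the far higher Mir378a was not tested either. The level, rank and ratios of Mir378c carry that limit.

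Some other miRNA names with several genes were as lopsided. Among names shared by 2 or more genes, 30 reached a summed mean of 1000 CPM, and in 10 of these the leading gene held 99% or more. Mir126 (99.996%), Mir26 (99.86%) and Mir378 (99.86%) were among the 10. Of the 6 names with 4 or more genes, Mir378 was the only one with a leading gene at 99% or more in the mean. The leading gene held 90.2% in Mir7, 78.8% in Mir29 and lower shares in the other 3. The 99% limit was chosen after the values were seen, and shares are affected by reads that map to several places, so this is a description.

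By mean level Mir378a ranked the second of all 2202 miRNA genes, at rank 3 in replicate 1 and rank 2 in replicate 2. Mir126a, the miRNA of endothelial cells, was above it in both libraries, at 155646 and 94732 CPM. Mirlet7g, a let-7 gene that acts in developmental timing, stood at 81272 and 71269 CPM, so its range overlapped that of Mir378a and the pair exchanged places between the libraries. Mirlet7i, at 56572 and 47210 CPM, lay below Mir378a in both. Mir378c ranked 201 by mean, next to Mir874 (77.0 and 78.5 CPM) and Mir138-2 (127 and 24.0 CPM). Mir378d ranked 243, between Mir103-2 (51.9 and 13.3 CPM) and Mir1198 (33.4 and 28.3 CPM). Mir378b ranked 348, between Mir758 (4.30 and 3.46 CPM) and Mir211 (6.61 and 0.577 CPM). Each of these 6 neighbours overlapped the Mir378 gene beside it over the libraries, so places this far down the order are not resolved with 2 libraries.

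**Figure D2:**
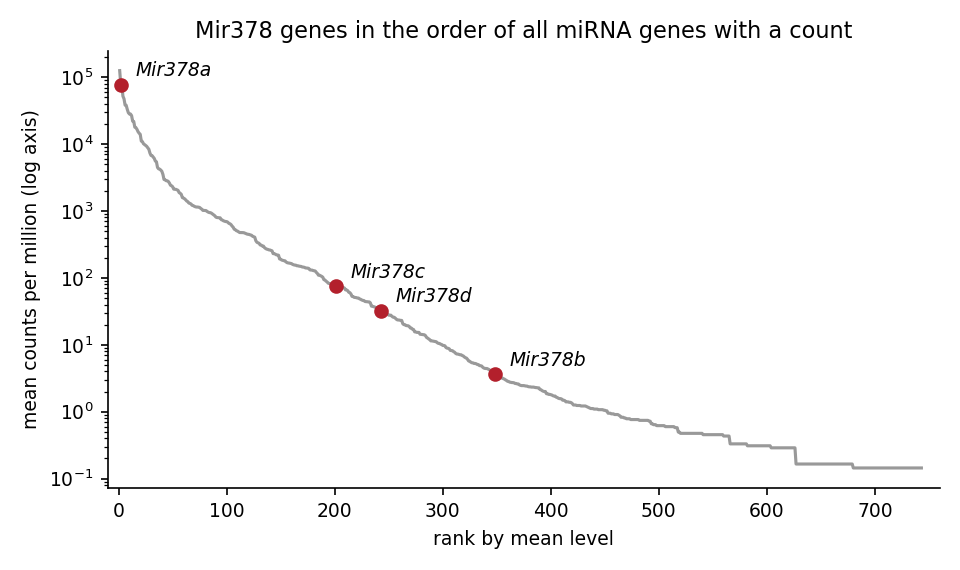
Mean CPM (log axis) of every miRNA gene with a count, ordered by level (grey line), with the 4 Mir378 genes as red points. Mir378a stands at rank 2, and Mir378c, Mir378d and Mir378b at ranks 201, 243 and 348.

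The genes closest to Mir378a in level were sought by the distance over the 2 libraries of log2(CPM + 1). With only 2 libraries a correlation cannot be given, and this distance says nothing beyond likeness in level. The nearest were Mirlet7g at a distance of 0.29, Mirlet7i at 0.89, Mir143 of smooth muscle and fibroblasts at 1.05, Mir126a at 1.13 and Mir10a of the Hox clusters at 1.46. Only the range of Mirlet7g overlapped that of Mir378a. Among the 20 genes of highest mean, Mir378a had a moderate spread: its coefficient of variation was 10.4%, against 9.27% for Mirlet7g, 34.4% for Mir126a and 121% for Mir122.

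The location of Mir378a sets it apart from the other 3 genes. On mm10 it spans 66 bases of chromosome 18, from 61397835 to 61397900 on the minus strand. Ppargc1b spans 61298136 to 61400431 on the same strand. In each of its 3 annotated transcripts the hairpin falls in intron 1, 2389 bases after the first exon. The intron runs on for 74526 bases beyond the hairpin in the protein-coding transcript of 12 exons. Where the transcript has an added second exon (13 exons in all) it runs on for 15311 bases, and in the short processed transcript for 7748. The hairpin thus lies 2500 to 2531 bases downstream of the annotated start sites. Mir378c overlaps Samd4, a gene for an RNA-binding protein, and Mir378b overlaps Msi2, which encodes another RNA-binding protein. Both lie on the strand opposite to that gene. Mir378d overlaps no protein-coding gene, with Atp23 158035 bases and Lrig3 694922 bases away. No member is near another miRNA gene on either side, apart from the annotation opposite Mir378a: the nearest to Mir378a was Mir145a, 249924 bases away, and the nearest to Mir378c, Mir378d and Mir378b lay 1296776, 285138 and 595817 bases away.

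**Figure D3:**
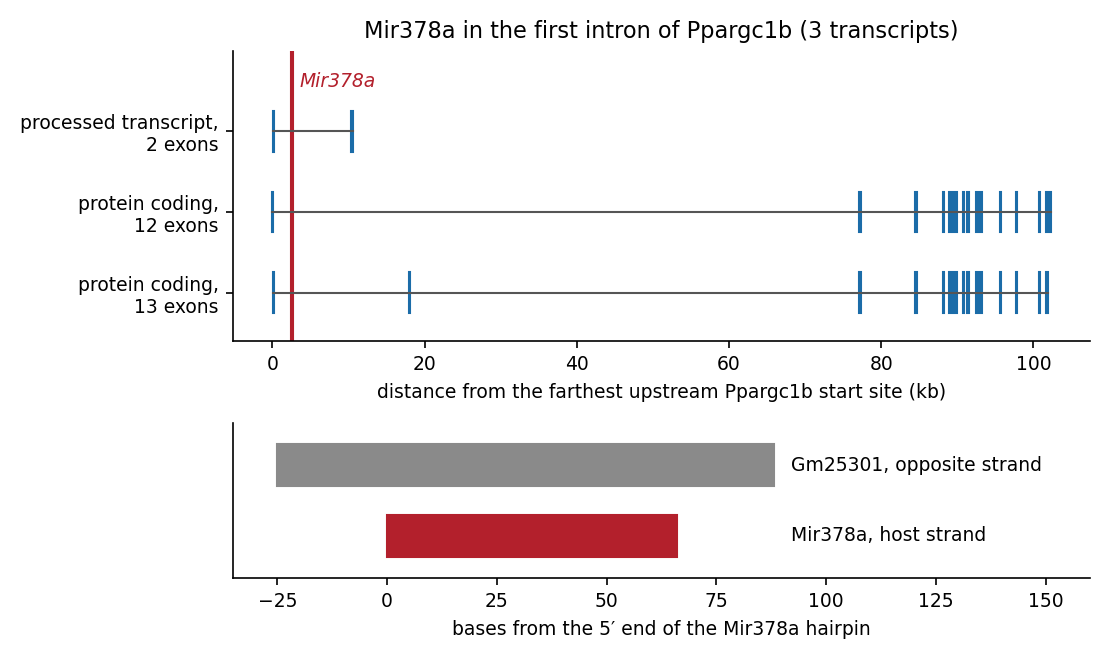
Upper panel: the 3 annotated Ppargc1b transcripts drawn 5′ to 3′ by distance in kilobases from the start site, with exons as blue bars and Mir378a as a red bar in the first intron of each. Lower panel: the hairpin of Mir378a and the miRNA annotation Gm25301 on the opposite strand, in bases from the 5′ end of the hairpin, where Gm25301 covers the whole of Mir378a.

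Of the 2202 miRNA genes 733 lie, like Mir378a, in an intron of a protein-coding gene on its strand, 307 like Mir378b and Mir378c only opposite to such a gene, 246 overlap an exon and 916, like Mir378d, overlap no such gene. Detection in both libraries was 16.6% for the first class, 11.7% for the second, 17.5% for exons and 17.8% for the last. Genes in a sense intron made up 32.1% (32.1 to 32.2) and 34.8% (34.7 to 34.8) of counts in the libraries, and Mir378a alone was 22.4% (22.3 to 22.4) and 23.9% (23.8 to 24.0) of the counts of that class. After Mir378a its leading genes were Mirlet7g in Wdr82, Mir26b in Ctdsp1 at 16497 and 39787 CPM, Mir23b in 2010111I01Rik at 19151 and 24782, and Mir335 in the imprinted Mest at 18826 and 14344. The opposite-strand class, with Mir378c and Mir378b, held 4.20% and 4.12% of counts, and its detected genes had a median of 23.3 CPM. With that median as a mark, Mir378c was above it and Mir378b below it in both libraries.

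The level of Mir378a depended on how strands were treated. The deposited tables give 3 counts per gene, read here from their values and layout, since the columns have no names: reads of either strand, reads on the strand of the gene and reads on the opposite strand. In replicate 1 Mir378a had 0 reads in the either-strand column, 217252 on its own strand and 0 opposite. In replicate 2 it had 0, 288293 and 0. An annotated miRNA gene of 113 bases, Gm25301, lies on the plus strand from 61397813 to 61397925, and extends past the Mir378a hairpin by 22 bases on 1 side and 25 on the other. Its opposite-strand column held 217252 and 288293 reads, the same numbers as Mir378a on its own strand, while its own strand held 0 and 1 read. A count of 0 there allows up to 0.992 CPM in replicate 1, so Gm25301 was at or below that limit. By these columns the reads lie on the strand of Mir378a and Ppargc1b. Genes with a miRNA gene opposite and 10 or more reads on their own strand held 902348 such reads in replicate 1 and 794395 in replicate 2. Reads listed as ambiguous in the either-strand column came to 902374 and 794418.

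**Figure D4:**
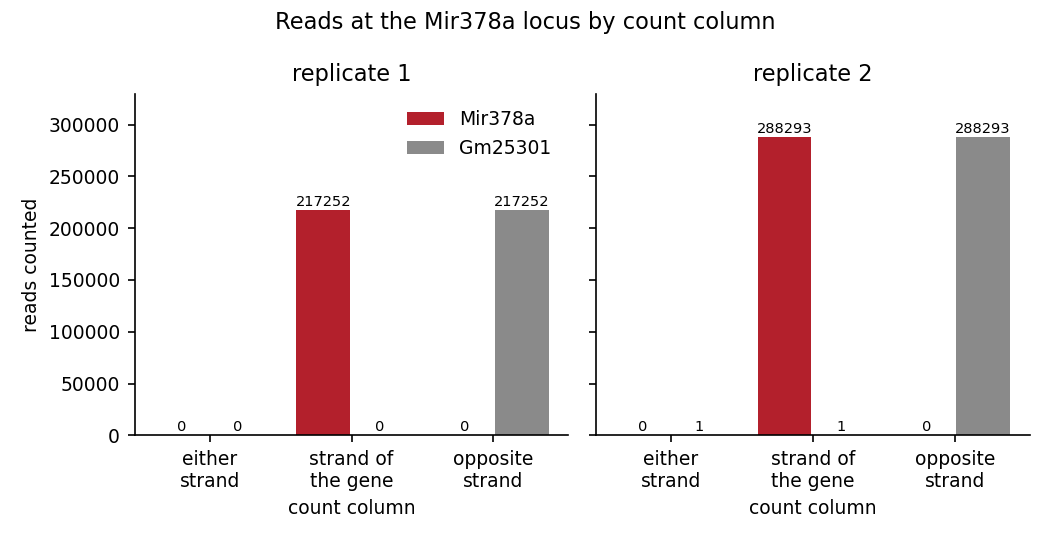
Reads counted for Mir378a (red) and for Gm25301 (grey) in the 3 deposited count columns, 1 panel per library, with the value above each bar. All reads of the locus but 1 are on the strand of Mir378a, and the either-strand column gives 0 reads for it in both libraries.

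The reads of Mir378a equalled 24.1% of the ambiguous reads (24.0 to 24.2) in replicate 1 and 36.3% (36.2 to 36.4) in replicate 2, a loss exceeded only by that of Mir126a. The loss was not limited to this locus. Another miRNA gene is annotated on the opposite strand of 64 miRNA genes, of which 28 had 10 or more sense reads in replicate 1 and 28 in replicate 2. Of those, 25 had 0 either-strand reads in replicate 1 and 23 in replicate 2. None of the other genes with 10 or more sense reads, 327 and 337, had 0 there. Mir378c, Mir378d and Mir378b have no miRNA gene opposite them, and their either-strand counts equalled their sense counts. By the either-strand column the family would hold 0.0151% of counts, and Mir378c would be its highest member.

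Between the 2 libraries each member was compared by an exact two-sided conditional binomial test, run on all 413 genes with 10 or more reads and adjusted by Benjamini-Hochberg. Of these genes 55.4% differed at 0.05, 28.8% higher and 26.6% lower in replicate 2, so a call is common here. Mir378a was called higher in replicate 2, 1.16-fold (95% interval 1.15 to 1.16), with an adjusted p too small for double precision to hold. Mir378c was 1.22-fold higher (1.02 to 1.47) and did not pass (exact test, adjusted p = 0.0538). The ratio of Mir378d was 1.04 (0.783 to 1.37, exact test, adjusted p = 0.895) and that of Mir378b 1.75 (0.705 to 4.71, adjusted p = 0.318). Thus 1 of 4 members passed, a share below the background. The 3 that did not pass are under 100 CPM, where 33.0% of 224 tested genes were called. All 4 ratios were above 1, although that of Mir378d was 0.967 with Mir126a left out of the total, and the sum of the 3 minor genes had a ratio of 1.18 (1.01 to 1.37), close to the 1.16 of Mir378a.

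The difference in Mir378a was small beside those of other well-read genes: of 189 genes at 100 CPM or more, 155 were called and 122 had a larger ratio in either direction. The hepatocyte marker Mir122 was also higher in replicate 2, as were 28.8% of tested genes, at 3786 CPM in replicate 1 and 49475 in replicate 2. Its part in the result was not tested. With Mir122 out of the total the ratio of Mir378a was 1.21, and with Mir126a out of it 1.08. For Mir378c the same changes gave ratios of 1.28 (exact test, adjusted p = 0.0138) and 1.14 (adjusted p = 0.233), and with the total unchanged a minimum of 20 reads gave an adjusted p of 0.0487 in the same exact test, so whether it passes rests on both the total and the count filter. An exact two-sided sign-flip test over 2 libraries has a smallest p of 0.5, too large for a test of levels across samples.

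**Figure D5:**
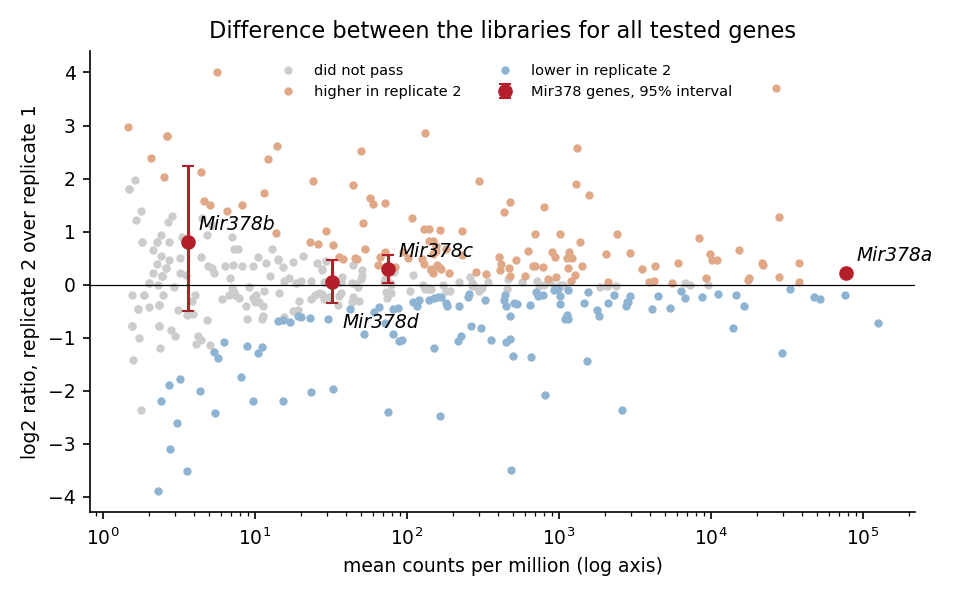
Log2 ratio of replicate 2 over replicate 1 against mean CPM (log axis) for the tested miRNA genes with a read in both libraries, coloured by the exact binomial test, with the 4 Mir378 genes in red and their 95% intervals as bars. Mir378a lies at a ratio of 1.16 and the intervals of Mir378d and Mir378b include 1.

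Levels of miRNAs known from the tissues in which miR-378 is best known are given beside it, by lists. The fat cell list of 15 miRNAs, among them Mir193b and Mir455, which favour brown fat cell formation, was detected in full. Its summed share of counts was 0.503% (0.495 to 0.511) in replicate 1 and 0.598% (0.590 to 0.606) in replicate 2. Mir378a exceeded that sum 14.3-fold and 13.9-fold. Mir455 was at 1146 and 895 CPM, Mir193b at 335 and 347, Mir365-2 at 13.6 and 8.66, and Mir365-1 at 7.27 and 6.35 CPM. The members of highest level besides Mir455 were Mir182, Mir203 and Mir328, at 1378 ± 527, 1020 ± 458 and 789 ± 78.1 CPM, which are also known from epithelium and other tissues. Of the 15, 3 were higher and 5 lower in replicate 2, and 7 did not pass. The median log2 ratio was -0.12, against 0.03 over all tested genes. So 8 of 15 were called, near the background of 55.4%. At 100 CPM or more, where most of these 15 lie, 82.0% of tested genes were called, and under 100 CPM 33.0%. Of the 15 hairpins 8 share a 20-base stretch with another gene, and the part of this in their counts was not tested.

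A list of 12 other miRNAs studied in fat cells had 9 members detected and 3, the Mir133 genes, at 0 reads in both libraries. It joins miRNAs known to restrain brown fat cells, such as Mir27b and Mir155, with the Mir26 genes, which are known to favour fat cell formation, so its sum has no single direction. It was led by Mir26b at 28142 ± 16469 CPM, Mir93 at 5565 ± 93.6, Mir27b at 2960 ± 858 and Mir106b at 1879 ± 48.0. Mir378a was 2.58 times its sum in replicate 1 and 1.59 times in replicate 2. Here 6 of the 9 tested were higher, 2 lower and 1 did not pass, against 28.8% higher and 26.6% lower over all tested genes. At 100 CPM or more, where most of these 9 lie, 82.0% of tested genes were called in either direction. The median log2 ratio of the list was 0.60, against 0.03 over all tested genes. Mir26b alone was 16497 of the 27857 CPM of the list in replicate 1, and 7 of the 12 hairpins share a 20-base stretch with another gene.

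Striated muscle miRNAs were close to the limit of counting. Of 10 members only Mir206, at 5.95 and 9.52 CPM, was detected. Mir133a-1, Mir133a-2, Mir133b and Mir1a-1 had 0 reads in both libraries. For reads placed at a single locus that allows up to 0.992 and 0.866 CPM, and it sets no limit on reads with several mapping positions. The whole list summed to 10.9 CPM in replicate 1 and 14.1 CPM in replicate 2, and 0 of the 3 tested passed the exact binomial test, with every 95% interval of the ratio including 1. The next members were Mir499 at 2.31 and 1.73 CPM, Mir1b at 1.98 and 2.02, and Mir208b at 0.331 and 0.577. Mir378a was 6583 and 5884 times the sum of the list. Of these hairpins 5 share a 20-base stretch with another gene, so reads of these genes can be among the unassigned ones. The hepatocyte list of 4 summed to 3857 CPM in replicate 1 and 49815 in replicate 2, and Mir378a went from 18.6 to 1.67 times that sum. Mir122 was 13.1-fold, Mir192 7.22-fold and Mir194-2 2.91-fold higher in replicate 2, and Mir194-1, at 2.31 and 2.60 CPM, did not pass. The sum of the list differed far more than Mir378a did, and its part in the level of Mir378a was not tested. Of the 4 hepatocyte hairpins 2 share a 20-base stretch with another gene.

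Mir378a was also set beside miRNAs in or near other genes of metabolism and signalling, a list of 20. The sum of the list was 69197 CPM in replicate 1 and 93679 in replicate 2, against 71827 and 83205 for Mir378a alone. Its leading members were Mir26b, Mir335 and Mir139, the last in the phosphodiesterase gene Pde2a at 11832 and 18737 CPM, and Mir30e in Nfyc at 9182 and 12632. Mir33, in the sterol regulator Srebf2, was at 11.9 and 16.5 CPM. Mir107, in the pantothenate kinase gene Pank1, was at 4374 and 856 CPM. Mir208a, Mir208b and Mir499, in the myosin heavy chain genes Myh6, Myh7 and Myh7b, were at or under 2.31 CPM in both libraries. Of the 18 tested, 8 were higher, 8 lower and 2 did not pass, and the median log2 ratio was 0.04. Over all tested genes 55.4% were called in either direction, and at 100 CPM or more, where most of these 18 lie, 82.0%. Members of the list ranged from 0.144 ± 0.204 CPM for Mir208a to 28142 ± 16469 CPM for Mir26b. Of the 20 hairpins 6 share a 20-base stretch with another gene, and the part of this in their counts was not tested.

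The steroidogenesis list of 18 was led by Mir26b, Mir125a at 1654 and 3191 CPM, Mir320 at 2204 and 1473, and Mir182. Its sum was 24106 CPM in the library of replicate 1 and 48585 CPM in that of replicate 2, of which Mir26b, shared with the lists above, was the main part, and Mir378a was 2.98 and 1.71 times that sum. Mir132 and Mir212, known to respond to corticotropin, were at 474 and 415 and at 31.4 and 26.0 CPM. Of the 17 tested 6 were higher, 7 lower and 4 did not pass, with a median log2 ratio of 0.04. Over all tested genes 28.8% were higher, 26.6% lower and the median was 0.03. At 100 CPM or more, where most of these 17 lie, 82.0% were called in either direction. Among markers of cells in the gland, the neuroendocrine list summed to 31136 and 34282 CPM. It was led by Mir375 at 26615 and 29592 and Mir7b at 4120 and 4312. Next to them were Mir7-1 at 318 and 304 CPM and Mir7-2 at 82.3 and 74.2. Of these 4 genes 2 were higher and 0 lower, against 28.8% higher and 26.6% lower over all tested genes. All but Mir7-2 lie at 100 CPM or more, where 82.0% were called in either direction. The erythroid list summed to 43959 and 19202 CPM and had 2 of 3 lower and 0 higher, against the 26.6% lower over all tested genes, namely Mir451a at 41828 and 17126 CPM and Mir486 at 37.0 and 23.7, while Mir144 stood at 2093 and 2053. The endothelial Mir126a was 1.64-fold lower in replicate 2, and Mir126b, opposite it, was at 2.31 and 6.93 CPM and higher. Mir378a thus exceeded the sum of the erythroid list 1.63-fold and 4.33-fold and that of the neuroendocrine list 2.31-fold and 2.43-fold, and stayed below the endothelial sum, at 0.461 and 0.878 of it.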

How the data were processed

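The authors deposited raw read counts per miRNA gene for each library, on mm10 with GENCODE M21 per the deposited notes. The sources used here name neither aligner nor counter. All 2202 gene identifiers matched GENCODE M21. The 4 summary rows of each file, which name no gene, stayed out of totals and were 57.8% of replicate 1 and 59.1% of replicate 2. The sense column was scaled so that its total became 1000000 (CPM). The totals were 3024662 and 3464837 reads, so 1 read was 0.331 and 0.289 CPM.

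There is 1 group and no contrast, so no edgeR quasi-likelihood test was made. The libraries were compared by the exact two-sided conditional binomial test on genes with 10 or more reads, with Benjamini-Hochberg adjustment at 0.05. In simulated libraries that differed by counting alone, the procedure called 1.34% of 224 unchanged genes. Of genes given a 1.25-fold difference it called 48%, and of those given a 1.5-fold one 61.2%. A gene that did not pass may therefore still differ. Those simulations left out any further spread between real libraries, so the rate of false calls in these data was not tested. Shares have exact Clopper-Pearson intervals at 95%.

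Members, lists and comparisons were chosen with earlier results of these data known. Named genes are the Mir378 genes, the 5 nearest to Mir378a, genes with the seed of a detected Mir378 strand (none found besides the members among the sequences compared), the 4 leading members of each of 9 lists and the 5 leading sense-intronic genes. Other genes named were chosen after their values were seen. Alternatives were the strand column, the total, edgeR's TMM, DESeq2's size factors, count and detection limits, pseudocounts, the transcript set and each library alone. Normalization factors came from edgeR 4.0.16 and DESeq2 1.42.0 in R 4.3.3, and all other values from SciPy 1.17.1 and statsmodels 0.14.6, with pandas 2.3.3 and NumPy 2.4.6, in Python 3.11.15. Genome positions matching each mature strand were not counted, as no genome sequence was used.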

Additional observations from a re-analysis of the deposited data

Results flagged for a closer look

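Unassigned reads with several mapping positions enter none of the comparisons above. They made up 27.5% of all reads for replicate 1 and 29.4% for replicate 2. They are listed because they are a signal outside the measured genes. Without a control library, whether such a share is unusual was not tested. With 2 libraries of 1 group, samples far from their group and differences between groups could not be looked for.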

How the results depend on the processing

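The level of Mir378a was 0 CPM with either-strand counts, 32147 CPM with all reads of the file as the total and 88490 CPM without Mir126a in the total. The family share was 0.0151%, 3.22% and 8.86% under the same settings. The rank of Mir378a fell to 732 with either-strand counts, shared with all other genes at 0. With 1 library left out the level ranged from 71827 to 83205 CPM, the family share from 7.19% to 8.33% and the rank from 2 to 3. TMM, DESeq2's size factors, a total without Mir122 and one without genes that share a stretch kept the level and the share within 1 SD. Mir378a and Mir378c are themselves genes that share a stretch, so by that rule their own reads leave the last total. The value it gives is therefore not a share of all counts and cannot show the effect of shared stretches.

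The ratio of Mir378a stayed above 1 and past the test, from 1.08 to 1.21, with TMM, DESeq2's size factors, all reads as the total, totals without Mir122 or Mir126a and other count minimums. It was not computed without the genes that share a stretch. The ratio of Mir378c, whose alternatives were chosen after the data were seen, passed with DESeq2's size factors (exact binomial test, adjusted p = 0.0488), with a minimum of 20 counts (adjusted p = 0.0487) and without Mir122 (adjusted p = 0.0138). Its adjusted p otherwise ranged up to 0.233. That of Mir378d was 0.967 without Mir126a and did not pass either way. Called genes numbered 213 to 234 against 229. Their split of 119 higher and 110 lower became 95 and 137 without Mir126a, 74 and 139 with either-strand counts, and 139 and 95 without Mir122.

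The share of sense-intronic genes was 45.3% with basic protein-coding transcripts, since Mir126a then counts as intronic, and 32.1% to 34.8% with 1 library left out. All 4 Mir378 genes kept their class. The 5 genes nearest to Mir378a were the same with pseudocounts of 0.5 and 10. No paired analysis was possible because the labels give 1 group. Depth limits Mir378b most, with 8 and 16 reads.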
